A study of Mus musculus with 41 samples.

Results

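The subject is a set of 10 genes for inhibitory and costimulatory ligands and receptors through which myeloid cells address T cells. They are Cd274, Pdcd1lg2, Cd80, Cd86, Cd40, Havcr2, Vsir, Lgals9, Cd276 and Icosl. The genes were picked by symbol, all 10 were found among the 55453 genes of the series, and all 10 were tested in each comparison. The tumours were orthotopic implants of MC38-luc, a luciferase-carrying line of mouse colon adenocarcinoma cells, in the rectum of female C57BL6 mice. Irradiated tumours (SCRT) were given 5 fractions of 5 Gy, 1 each day between days 9 and 13, untreated (UT) tumours were given none, and harvest was on day 14. From CD45+ CD11b+ cells, tumour-associated macrophages (TAM, Ly6C- Ly6G- F480+), inflammatory monocytes (Ly6C+ Ly6G-) and granulocytes (Ly6C+ Ly6G+) were sorted, each giving its own RNA-seq library. TAM came from 10 irradiated and 5 untreated tumours, inflammatory monocytes from 9 irradiated and 5 untreated tumours, and granulocytes from 7 irradiated and 5 untreated tumours. The treatment groups hold different tumours, whereas the 3 subsets of a treatment largely share tumours.

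T cells need a signal from the antigen receptor and another from costimulatory molecules. CD80 and CD86 give the costimulatory signal through CD28 and are also bound by the inhibitory receptor CTLA-4, while ICOS ligand acts through ICOS. CD40 works in the other direction, since it is the receptor by which a myeloid cell receives CD40 ligand from a helper T cell. PD-L1 (Cd274) and PD-L2 (Pdcd1lg2) bind the inhibitory receptor PD-1. VISTA (Vsir) and B7-H3 (Cd276) are further members of the B7 family, TIM-3 (Havcr2) is an inhibitory receptor of T cells that macrophages and dendritic cells carry too, and galectin-9 (Lgals9) is a lectin that binds TIM-3.

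The values are the authors' comparisons of irradiated with untreated libraries in each subset. Each gene has a mean normalised count, a log2 fold change (irradiated over untreated), a Wald statistic (the effect over its standard error) and p-values before and after adjustment. The log2 fold change was read here as shrunken. A gene was called higher or lower at an adjusted p under 0.05, with the direction of the Wald statistic. Single libraries have no values in these tables, so library depth is unknown and an SD over tumours cannot be given. In place of an SD, the log2 fold change divided by its Wald statistic is given as an approximate standard error (SE). In sorted bulk samples, fewer cells of a type that expresses a gene and less RNA per cell cannot be told apart.

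Over all libraries, most of the 10 genes stood high in expression. The mean is one value for the libraries of all 3 subsets, so it gives neither the level in a subset nor a check of the sorted cell types against their markers. Levels per kilobase were computed here from the means of the authors' deposited table and exon lengths of GENCODE M21. Lgals9 came first with 5202 normalised counts per kilobase, followed by Cd274 with 4412, Vsir with 2995 and Cd86 with 1725. Havcr2 had 995, Cd80 817, Pdcd1lg2 512, Cd40 447 and Icosl 433 normalised counts per kilobase. Cd276 was last with 62.3, and the median over the genes tested in TAM was 44.7 per kilobase. The order is of levels averaged over libraries, and the spread around each level is unknown.

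In TAM, 6 of the 10 genes rose after irradiation and 0 fell by the authors' Wald test (DESeq2). The ligands of PD-1, Cd274 and Pdcd1lg2, rose together with Cd80, Cd86, Vsir and Lgals9, and Cd40, Havcr2, Icosl and Cd276 were not called. Of all 16851 genes tested in TAM, 13.9% were called higher and 12.5% lower, and 21.6% of those with a mean count of 200 or more, a level all 10 genes exceed, were called higher. Before adjustment, the authors' Wald test (DESeq2) gave a p under 0.05 to 7 of the genes as higher and to 1, Cd276, as lower. The median Wald statistic of the 10 genes was 2.58, beside 0.14 over all genes tested and 0.48 over those with a mean count of 200 or more, from the authors' deposited table. In the same comparison 11 of 13 neutrophil markers rose by the Wald statistic, 4 of them with a log2 fold change of the other sign. Of the other markers, 5 of 8 classical monocyte markers rose and 5 of 10 dendritic cell markers fell. The part of these cells in the changes of the 10 genes was not tested.

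Cd274 showed the smallest p of the set in TAM. Its log2 fold change was 1.37 (approximate SE 0.214), a 2.59-fold higher level in irradiated TAM, with a Wald statistic of 6.42 (adjusted p = 8.9e-09 in the authors' deposited table). This statistic lay above those of 99.3% of the genes tested there. Pdcd1lg2 had nearly the same log2 fold change in the authors' deposited table, 1.37 to 2 decimals, but a larger approximate SE of 0.529, and its adjusted p was 0.04. The fold of Cd274 is therefore known more closely than that of Pdcd1lg2, whose approximate 95% interval ran between 0.33 and 2.40 on the log2 scale.

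Both ligands of CD28 rose in TAM. Cd80 had a log2 fold change of 1.29 (approximate SE 0.244, 2.44-fold, adjusted p = 3.3e-06) in the authors' deposited table. For Cd86 the authors' deposited table gives 0.86 (approximate SE 0.194, 1.82-fold, adjusted p = 0.00013). Icosl, the ligand of ICOS, had a log2 fold change of 0.41 and was not called (adjusted p = 0.073 in the authors' deposited table), with an approximate 95% interval of 0.06 to 0.76. Cd40, the receptor among these genes, had the same log2 fold change, 0.41, in the authors' deposited table with a wider interval of -0.20 to 1.03 and an adjusted p of 0.35.

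Smaller changes were called in TAM for Vsir and Lgals9. Vsir had a log2 fold change of 0.41 (1.33-fold) with the smallest approximate SE of the set, 0.113 (adjusted p = 0.002) in the authors' deposited table. Lgals9 rose by a log2 fold change of 0.49 (1.41-fold, adjusted p = 0.04 in the authors' deposited table). Vsir, Icosl and Cd40 thus had nearly equal folds, and of these Vsir alone was called. Havcr2 had 0.36 (adjusted p = 0.24) in the authors' deposited table, with an interval of -0.08 to 0.79. Cd276 was the 1 gene of the set with a negative Wald statistic in TAM, with a log2 fold change of -0.85 and an interval of -1.57 to -0.14 (adjusted p = 0.066) in the authors' deposited table.

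Once all genes with a p-value were adjusted together, low-count genes included, Pdcd1lg2 (adjusted p = 0.073) and Lgals9 (0.074) were not called in TAM (Benjamini-Hochberg on the deposited DESeq2 p-values). The other 4 calls held under that setting.

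**Figure D1:**
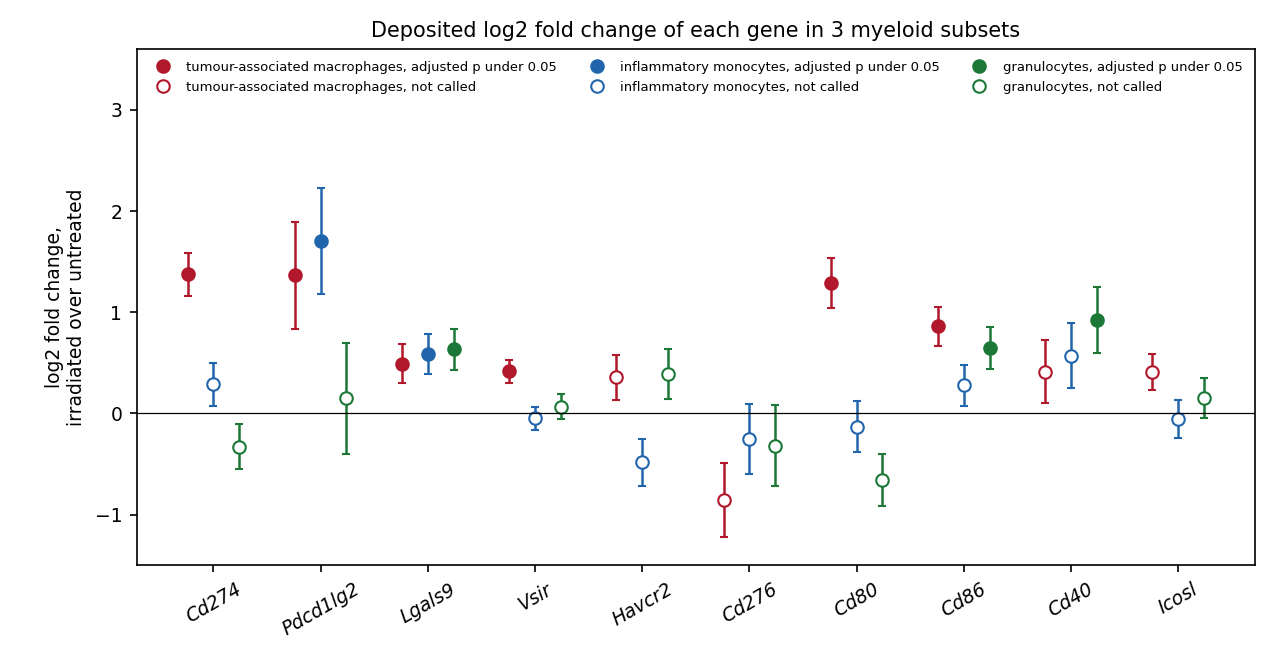
Deposited log2 fold change (y axis, irradiated over untreated) of each of the 10 genes (x axis) in TAM, inflammatory monocytes and granulocytes; bars show 1 approximate SE, the fold over its Wald statistic, and filled points have an adjusted p under 0.05. Cd274 and Cd80 lie at 1.37 and 1.29 in TAM, at 0.29 and -0.13 in inflammatory monocytes and at -0.33 and -0.66 in granulocytes, while Lgals9 lies between 0.49 and 0.63 in all 3 subsets and no filled point lies below 0.

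In inflammatory monocytes, only Pdcd1lg2 and Lgals9 were called among the 10 genes, both higher. Of all genes tested in this subset 4.13% were called higher and 1.77% lower, and 4.90% of those with a mean count of 200 or more were called higher. Among markers of other cells, 9 of 14 macrophage and 7 of 13 neutrophil markers rose here, and their part in the result was not tested. Pdcd1lg2 had the largest log2 fold change of the set in any subset, 1.70 (approximate SE 0.523, 3.25-fold), with a Wald statistic of 3.26 (adjusted p = 0.028) in the authors' deposited table. Lgals9 had 0.59 (approximate SE 0.196, 1.51-fold, adjusted p = 0.047) in the authors' deposited table. Neither call held once all genes with a p-value were adjusted together, as Pdcd1lg2 then had 0.059 and Lgals9 0.1 as adjusted p (Benjamini-Hochberg on the deposited DESeq2 p-values). Without adjustment, the authors' Wald test (DESeq2) gave a p under 0.05 to the same number of genes as higher, 2, and to 1 as lower.

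The 1 lower gene at that unadjusted level was Havcr2, the TIM-3 gene, with a log2 fold change of -0.48 and an interval of -0.93 to -0.04 (adjusted p = 0.21 in the authors' deposited table). Cd274 had 0.29 (interval -0.14 to 0.71, adjusted p = 0.5) and Cd86 0.28 (adjusted p = 0.48) in the authors' deposited table. Cd40 had 0.57 with an interval of -0.05 to 1.19 (adjusted p = 0.31), again from the authors' deposited table. Among the other genes, log2 fold changes lay between -0.25 for Cd276 and -0.05 for Vsir in the authors' deposited table, with -0.13 for Cd80 and -0.05 for Icosl. The median Wald statistic of the set was 0.52 in the authors' deposited table, against 0.11 over all genes tested.

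In granulocytes, Cd86, Cd40 and Lgals9 rose and 0 of the 10 genes fell by the authors' Wald test (DESeq2). Of all genes tested there 7.32% were called higher and 9.90% lower, and 10.6% of those with a mean count of 200 or more were called higher. Beside this, 7 of 14 macrophage and 3 of 8 classical monocyte markers rose in granulocytes, and their part in the result was not tested. Cd86 had a log2 fold change of 0.65 (approximate SE 0.206, 1.56-fold, adjusted p = 0.016) in the authors' deposited table. Cd40 was called in this subset only, with 0.93 (approximate SE 0.323, 1.9-fold, adjusted p = 0.03 in the authors' deposited table). Lgals9 had 0.63 (approximate SE 0.205, 1.55-fold, adjusted p = 0.019 in the authors' deposited table), which makes it the 1 gene of the set called in all 3 subsets. With all genes that have a p-value adjusted together, Cd40 had an adjusted p of 0.06 (Benjamini-Hochberg on the deposited DESeq2 p-values) and was not called. At a threshold of 0.01 no call of these 3 genes in granulocytes held.

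Cd80, Cd274 and Cd276 had negative Wald statistics in granulocytes. The authors' deposited table gives Cd80 a log2 fold change of -0.66 with an interval of -1.16 to -0.15 and an adjusted p of 0.059. It was the 1 lower gene at a p under 0.05 before adjustment in the authors' Wald test (DESeq2). Cd274 had -0.33 (interval -0.77 to 0.11, adjusted p = 0.33) in the authors' deposited table. Pdcd1lg2 had 0.15 with a wide interval of -0.93 to 1.23, Havcr2 0.39, Icosl 0.15, Vsir 0.07 and Cd276 -0.32 in the authors' deposited table, with adjusted p-values from 0.29 to 0.9. The median Wald statistic of the set was 0.65, against -0.14 over all genes tested in the authors' deposited table.

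**Figure D2:**
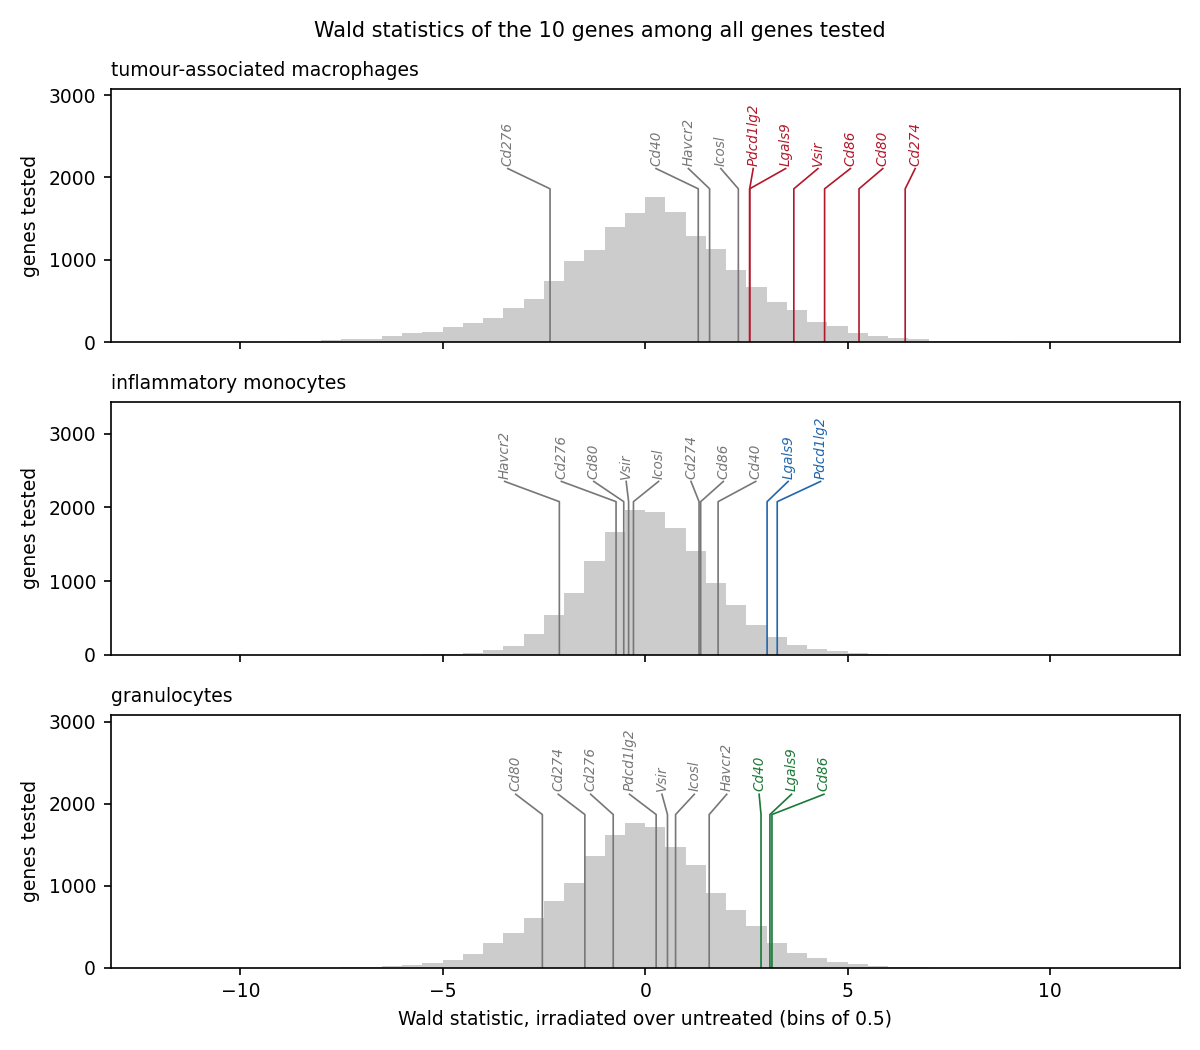
Number of genes tested (y axis) by Wald statistic of irradiated over untreated (x axis, bins of 0.5) in each subset, with lines at the 10 genes; coloured names have an adjusted p under 0.05 and grey names do not. In TAM, 9 of the 10 genes lie above 0 and Cd274 at 6.42 is the highest, whereas 5 of 10 in inflammatory monocytes and 7 of 10 in granulocytes lie above 0.

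Whether the effect of irradiation differed between subsets was asked of each gene. The difference of log2 fold changes was tested with the approximate SE, adjusted over all genes tested in both subsets, in 30 comparisons of the 10 genes. Cd274 and Cd80 differed between TAM and inflammatory monocytes, where 6.96% of all genes did. For Cd274 the difference, TAM minus inflammatory monocytes, was 1.09 (approximate SE 0.30, adjusted p = 0.011, normal test of the difference). For Cd80 it was 1.42 (approximate SE 0.35, adjusted p = 0.0033). The same genes, and no other of the 10, differed between TAM and granulocytes, where 11.0% of all genes did. That difference, TAM minus granulocytes, was 1.71 for Cd274 (approximate SE 0.31, adjusted p = 4.4e-06) and 1.95 for Cd80 (approximate SE 0.36, adjusted p = 5.5e-06).

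No other difference between subsets was called. Vsir (0.46, adjusted p = 0.056) and Havcr2 (0.84, adjusted p = 0.087) came nearest, both as TAM minus inflammatory monocytes. Between inflammatory monocytes and granulocytes 0 of the 10 genes differed by the normal test, 3 did at a p under 0.05 before adjustment, and 1.27% of all genes were called. For Lgals9 the interval of the difference was -0.63 to 0.44 for TAM minus inflammatory monocytes and -0.69 to 0.41 for TAM minus granulocytes. For Pdcd1lg2, TAM minus inflammatory monocytes gave -0.34 with an interval of -1.79 to 1.12, which takes in differences of over 1 log2 unit in either direction. A stricter test, which asks for effects of opposite sign that each have a small p, called none of the 10 genes for any of the 3 subset combinations. At a p under 0.05 before adjustment it took 1, Cd80 for TAM and granulocytes (p = 0.011, adjusted p = 0.83), beside 489 of all 15679 genes at that unadjusted level. After adjustment 0.0957% of all genes were called for TAM and granulocytes. For TAM and inflammatory monocytes it called 0 of 14506 genes, and for inflammatory monocytes and granulocytes also 0 of 14506. With so few genes called at all, this test cannot set the 10 genes apart from other genes.

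**Figure D3:**
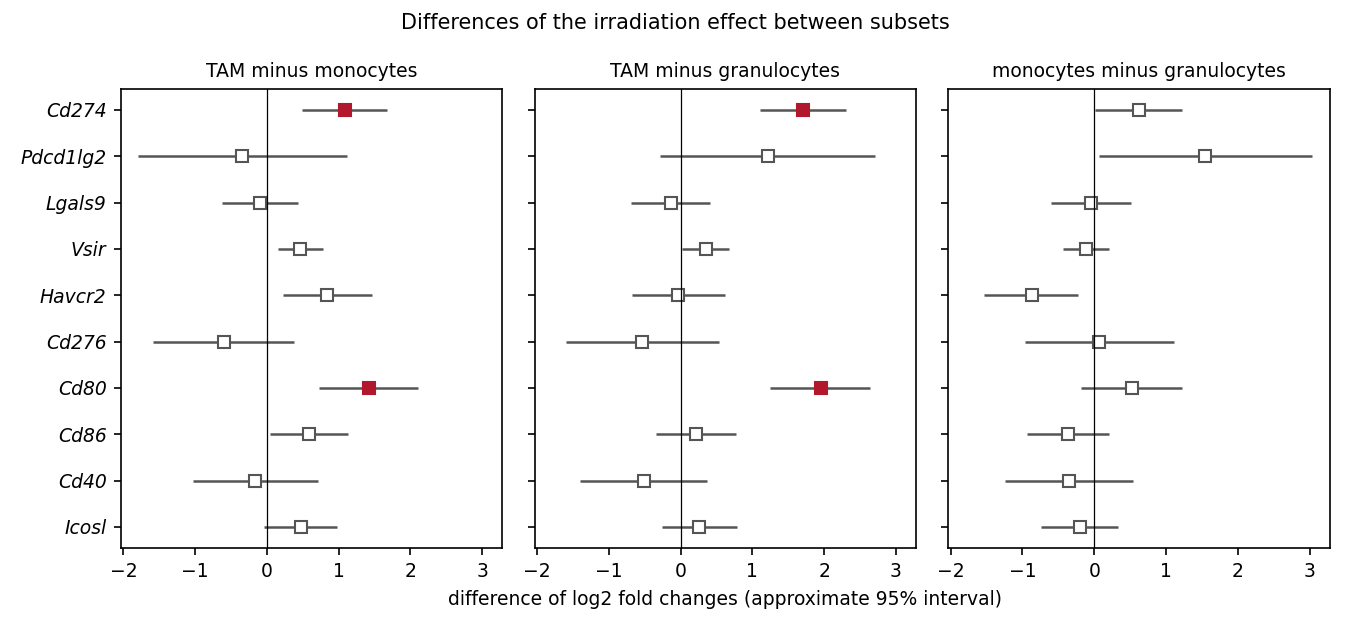
Difference of the log2 fold change (irradiated over untreated) between subsets (x axis) for each of the 10 genes (y axis), with approximate 95% intervals; red squares have an adjusted p under 0.05 over all genes. Cd274 and Cd80 are red in both panels that involve TAM, at 1.09 and 1.42 against inflammatory monocytes and 1.71 and 1.95 against granulocytes, and no square is red for inflammatory monocytes minus granulocytes.

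Cd274 and Pdcd1lg2 are next to each other among the protein-coding genes of mouse chromosome 19. The bases before their starts, and before that of Lgals9, are printed because Cd274 was called in TAM alone, Pdcd1lg2 was called in TAM and inflammatory monocytes, and Lgals9 was called in all subsets. Sequences are from RefSeq on GRCm38.p6, an earlier build than that of the counts, and run 5′ to 3′ on the gene's strand. They are chr19:29367188-29367437 (plus strand), chr19:29410669-29410918 (plus strand) and chr11:78984925-78985174 (minus strand), the 250 bases up to each start. Capitals mark matches to motifs searched on both strands.
Cd274: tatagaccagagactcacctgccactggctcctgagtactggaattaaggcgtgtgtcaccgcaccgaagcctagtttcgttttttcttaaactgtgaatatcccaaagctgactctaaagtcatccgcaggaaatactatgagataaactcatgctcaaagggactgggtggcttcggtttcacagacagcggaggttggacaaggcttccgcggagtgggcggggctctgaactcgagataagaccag
Pdcd1lg2: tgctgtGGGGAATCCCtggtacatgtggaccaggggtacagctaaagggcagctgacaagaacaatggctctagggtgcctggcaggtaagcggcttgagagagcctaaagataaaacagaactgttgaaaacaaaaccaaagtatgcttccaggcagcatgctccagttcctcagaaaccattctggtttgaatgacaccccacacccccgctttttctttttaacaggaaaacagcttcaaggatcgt
Lgals9: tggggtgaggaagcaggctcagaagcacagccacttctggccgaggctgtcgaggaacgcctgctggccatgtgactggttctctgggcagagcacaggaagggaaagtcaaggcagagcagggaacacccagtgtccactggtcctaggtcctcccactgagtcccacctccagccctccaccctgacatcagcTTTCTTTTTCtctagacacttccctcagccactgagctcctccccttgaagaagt

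The motifs were the core of the interferon element ISRE and the NF-kB motif. Promoters of 8 of the 10 genes were in the table, each searched over 250 bases before and 50 after the start. The capitals of Pdcd1lg2 are an NF-kB match on both strands, at -244 to -235 counted with -1 as the last base before the start. The capitals of Lgals9 are an ISRE core match on the minus strand at -55 to -46, and another match lies after the start. Icosl held an NF-kB match at -111 to -102, and the other promoters, that of Cd274 included, held none of these letters in this window. Among all 32851 promoters, 3.44% held the ISRE core and 8.46% the NF-kB motif, so 1 and 2 of 8 promoters here are counts that carry no test. The library kit keeps no strand, and GENCODE M21 has an antisense gene, AC119228.1, whose exons overlap those of Cd274 and whose mean count was 226 in the authors' deposited table, beside 15980 for Cd274. An antisense gene across Pdcd1lg2, A930007I19Rik, has no exon in common with it and a Wald statistic of 3.15 in TAM and 5.80 in inflammatory monocytes in the authors' deposited table.

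Genes of the interferon gamma and CD40 routes were counted in each subset, where 13.9% of all genes tested were called higher in TAM, 7.32% in granulocytes and 4.13% in inflammatory monocytes. All genes of both lists had a mean count above 200. Among genes with a mean count of 200 or more the shares were 21.6% in TAM, 10.6% in granulocytes and 4.90% in inflammatory monocytes. Both lists were chosen with earlier results of these data known, so their counts are a description. Differences of these lists between subsets were not tested. Interferon gamma acts through its receptor, JAK kinases and the transcription factor IRF1, and of 16 listed genes of this route and the related type I receptor route 13 rose in TAM and none fell. For Irf2 the authors' deposited table gives a log2 fold change of 0.85 (adjusted p = 3.9e-08), for the kinase gene Jak2 1.00, for the receptor gene Ifngr1 0.60 and for the feedback inhibitor gene Socs1 1.13. Irf1, picked for naming after its values were seen, had 0.59 (adjusted p = 0.022) in the authors' deposited table. At a p under 0.05 before adjustment the authors' Wald test (DESeq2) gave 14 higher and 0 lower genes. In inflammatory monocytes 1 of the 16 rose, Stat2 (0.89, adjusted p = 0.038 in the authors' deposited table). In granulocytes 3 rose, among them Stat2 (1.12) and Irf2 (0.43), and 2 fell, Ptpn2 (-0.68) and Stat3 (-0.46), in the authors' deposited table.

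CD40 signals through TRAF adaptors to NF-kB. Of 14 genes of this route 9 rose in TAM and none fell, although Cd40 itself was not called there. Nfkb2 had a log2 fold change of 0.93 (adjusted p = 1.3e-05), Relb 0.92, Birc3 0.87 and the kinase gene Map3k14 0.80 in the authors' deposited table. In granulocytes, where Cd40 rose, none of the 14 rose by the authors' Wald test (4 at a p under 0.05 before adjustment), and Traf6 (-0.95) and Nfkb1 (-0.94) fell in the authors' deposited table. In inflammatory monocytes none was called by the authors' Wald test, and 4 had a p under 0.05 before adjustment, all higher. The median Wald statistic of this list in the authors' deposited table was 3.42 in TAM (0.14 over all genes tested), 0.75 in inflammatory monocytes (0.11 over all genes) and 1.10 in granulocytes (-0.14 over all genes).

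Costimulatory ligands of the TNF superfamily had 2 of 7 tested genes that rose in TAM, 3 of 7 in inflammatory monocytes and 3 of 7 in granulocytes, and none that fell. The shares of all genes tested that were called higher were 13.9%, 4.13% and 7.32% in that order of subsets. Tnfsf4, which encodes OX40 ligand, rose in every subset, with log2 fold changes of 4.03 in TAM, 2.41 in granulocytes and 3.16 in inflammatory monocytes in the authors' deposited table, at a mean count of 95.1. Tnfsf14, which encodes LIGHT, rose in TAM (1.49, adjusted p = 2.2e-08 in the authors' deposited table). Tnfsf9, which encodes 4-1BB ligand, rose in granulocytes (1.24, adjusted p = 0.00026 in the authors' deposited table).

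Among 25 other ligands and counter-receptors, of which 19 were tested in TAM, 3 rose and 1 fell there. Of all genes tested in TAM 13.9% were called higher and 12.5% lower, so the count of higher genes lies near that share. Cd47, the ligand of the phagocyte receptor SIRPA, rose in all 3 subsets (0.87 in TAM, 0.57 in granulocytes, 0.60 in inflammatory monocytes) in the authors' deposited table. Sirpa itself rose in TAM (0.48) and inflammatory monocytes (0.50) in the authors' deposited table. Ceacam1 and Hmgb1, whose proteins can bind TIM-3 as galectin-9 does, went separate ways in TAM, with 1.35 (adjusted p = 0.00012) and -0.83 (adjusted p = 2.9e-20) in the authors' deposited table. In inflammatory monocytes 3 of 18 rose and 2 fell, where 4.13% of all genes tested were called higher and 1.77% lower. In granulocytes 2 of 18 rose and 2 fell, near the shares of all genes tested there, 7.32% higher and 9.90% lower. Cd244a, which encodes the SLAM receptor 2B4, fell in both of these subsets, with log2 fold changes of -0.97 in inflammatory monocytes and -0.88 in granulocytes in the authors' deposited table.

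**Figure D4:**
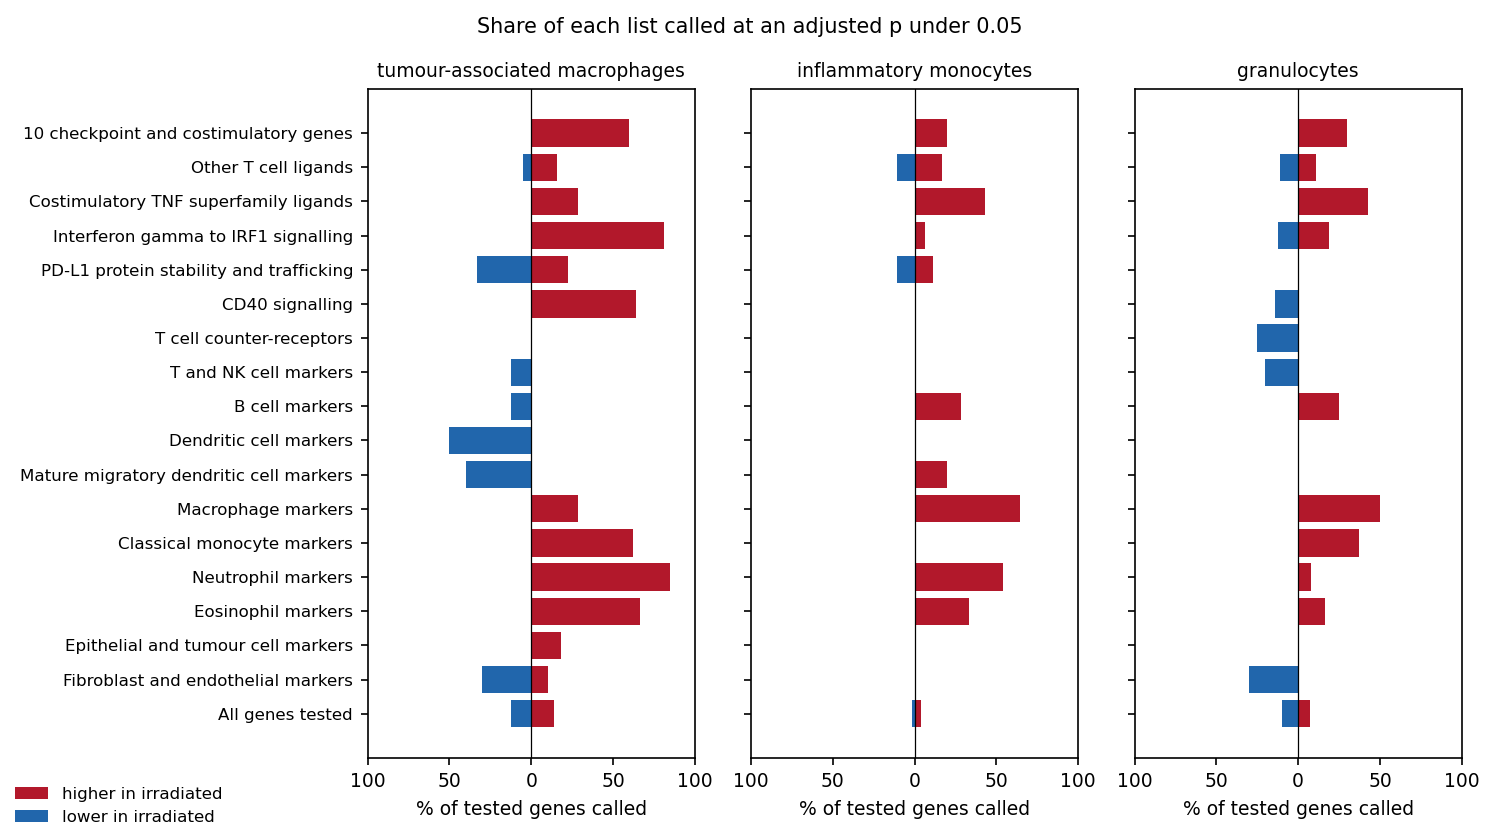
Percent of the tested genes of each list (rows) called higher (red, to the right) or lower (blue, to the left) in irradiated than in untreated libraries of each subset, with all genes tested in the last row. In TAM the bars to the right are long for the 10 genes (6 of 10), interferon gamma signalling (13 of 16) and CD40 signalling (9 of 14), and also for neutrophil markers (11 of 13). Direction is that of the Wald statistic, and 4 of these 11 neutrophil markers have a log2 fold change of the other sign.

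Marker lists of 10 cell classes were counted beside these genes. Of all genes tested, 13.9% were called higher and 12.5% lower in TAM, 4.13% and 1.77% in inflammatory monocytes, and 7.32% and 9.90% in granulocytes. The counts of called epithelial, T and NK cell and B cell markers in TAM lie near these shares. So does the count of neutrophil markers in granulocytes. Before adjustment, the authors' Wald test (DESeq2) gave a p under 0.05 in TAM to 10 of 11 epithelial markers as higher and 0 as lower. The median log2 fold change of these epithelial markers was 1.52. At the same level 0 T and NK cell markers were higher and 5 of 16 lower, and 2 of 8 B cell markers were higher and 1 lower. In TAM, 11 of 13 neutrophil markers rose by the Wald statistic, 4 of them with a log2 fold change of the other sign, as did 5 of 8 classical monocyte, 4 of 6 eosinophil, 4 of 14 macrophage and 2 of 11 epithelial markers. Of the markers of dendritic cells, which carry CD80 and CD86 when mature, 5 of 10 fell in TAM and 0 rose by the authors' Wald test (0 before adjustment), among them Batf3 (-1.25) and Xcr1 (-1.28) in the authors' deposited table. Markers of mature migratory dendritic cells fell in 2 of 5 cases, T and NK cell markers in 2 of 16, B cell markers in 1 of 8, and fibroblast and endothelial markers in 3 of 10, with 1 of these that rose. In inflammatory monocytes, 9 of 14 macrophage, 7 of 13 neutrophil, 2 of 6 eosinophil, 2 of 7 B cell and 1 of 5 mature dendritic cell markers rose, and none of the listed markers fell by the authors' Wald test, while 6 did at a p under 0.05 before adjustment. In granulocytes, 7 of 14 macrophage, 3 of 8 classical monocyte, 2 of 8 B cell, 1 of 13 neutrophil and 1 of 6 eosinophil markers rose, and 3 of 15 T and NK cell and 3 of 10 fibroblast and endothelial markers fell. None of these markers had a mean count of 0, and their levels within a group were not analysed here. Their part in the changes of the 10 genes was not tested.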

How the data were processed

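Of the tools the submitters' processing notes list, fastp 0.20.1 and STAR 2.7.6a handle reads and DESeq2 1.28.1 in R 4.0.2 tests genes, on mm39 (GRCm39). Libraries were made from cDNA with Nextera XT, per the labels' protocols. The sources used here do not give counting, annotation or the fitted design. The authors deposited 3 tables of comparisons. Their mean normalised count is a signal the authors averaged over libraries, identical in the 3 tables. The authors' log2 fold change was read as shrunken. It differs in sign from the Wald statistic for 16 called genes in TAM, 0 in granulocytes and 3 in inflammatory monocytes, none among the 10. For those genes the fold and the Wald statistic cannot come from the same estimate. Whether shrinkage is the reason was not tested. The Wald statistic, a score in the deposited tables, gave the direction. The deposited p-values match it within 0.0021 on the log10 scale, as two-sided normal values.

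The approximate SE is the fold over the Wald statistic, which is an SE only as far as shrinkage scaled both alike. Over 8202 genes of mean count 200 or more, its median ratio to that of TAM was 1.02 in inflammatory monocytes and 1.08 in granulocytes, and library numbers alone give 1.02 and 1.07. The normal test of differences, chosen after seeing the tables, treats subsets as independent although they share tumours, and leaves out genes whose fold and Wald statistic differ in sign. The test of opposite signs takes the larger of both p-values. Both were adjusted by Benjamini-Hochberg over all genes tested and tested on simulated data.

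The 10 genes and all lists were chosen with earlier results of these data known. From each list the text names up to 4 called genes per comparison by smallest adjusted p, or up to 2 by highest mean if none was called. The result of 1 further motif searched is not reported here. Exon lengths and overlaps came from GENCODE M21 (GRCm38), with a length for 99.3% of genes tested in TAM. Alternatives were other thresholds, other gene sets for adjustment, a minimum fold, centring and direction by fold. Python 3.11.15, pandas 2.3.3, numpy 2.4.6, scipy 1.17.1 and matplotlib 3.10.9 were used.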

Additional observations from a re-analysis of the deposited data

Results flagged for a closer look

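The effect of irradiation on Cd274, the PD-L1 gene, differed between subsets. The log2 fold change was 1.37 in TAM and 0.29 in inflammatory monocytes in the authors' deposited table (adjusted p of the difference 0.011, normal test with approximate standard errors). Against granulocytes, with -0.33 in the authors' deposited table, the adjusted p of the difference was 4.4e-06.

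The effect on Cd80, a CD28 ligand gene, differed between the same subsets. In the authors' deposited table its log2 fold change was 1.29 in TAM and -0.13 in inflammatory monocytes (adjusted p of the difference 0.0033). It was -0.66 in granulocytes in the authors' deposited table, and the difference of TAM from granulocytes had an adjusted p of 5.5e-06. Leaving out single libraries was not possible with tables of comparisons.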

How the results depend on the processing

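Of 210 values of single genes under alternatives, 187 kept their call and direction, 17 lost a call, 6 gained one and 0 changed sign. Many kept values could not have changed, so these counts do not measure robustness. A threshold of 0.01 or a minimum fold cannot add a call, and one of 0.10 cannot remove a call. Direction by fold could change nothing, as fold and Wald statistic had the same sign for all these genes. Nor could any sign change, because centring shifted each Wald statistic by less than its own size. Only the 11 original calls could be lost, and they gave all 17 losses. The calls of Cd274, Cd80 and Cd86 in TAM held under every alternative run. In TAM 6 genes rose and 0 fell. The count of higher genes was 4 at a threshold of 0.01, when every gene with a p-value was adjusted over, at a log2 fold of 0.5 or more and after centring, and 7 at a threshold of 0.10. The count of lower genes was 1, Cd276, at a threshold of 0.10, with adjustment over genes of mean count 50 or more, and with Wald statistics centred on the median gene (0.24 subtracted in TAM). In inflammatory monocytes 2 genes rose, against 0 at a threshold of 0.01, 0 when every gene with a p-value was adjusted over and 1 after centring. In granulocytes 3 genes rose, against 0 at a threshold of 0.01. There the count of lower genes was 1, Cd80, in place of 0 at a threshold of 0.10 and over genes of mean count 50 or more. Differences between TAM and inflammatory monocytes were called for 2 genes, 1 at a threshold of 0.01 and 4 at 0.10. The cause of these shifts was not tested, beyond the stricter or looser thresholds themselves.

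Calls of Pdcd1lg2 and Lgals9 in TAM and inflammatory monocytes lay near the threshold, with adjusted p-values from 0.059 to 0.1 when every gene with a p-value entered the adjustment. No paired analysis was possible because the irradiated and untreated libraries come from different tumours and the tables hold no values of single libraries, which also means that no library could be left out. Depth is unknown, and intervals rest on approximate standard errors.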

Other observations

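The listed T cell genes whose proteins bind those of the 10 genes, receptors and CD40 ligand, were sparse in the sorted cells. Pdcd1, Cd28, Ctla4, Icos and Cd40lg had mean counts between 2.98 and 51.7 in the authors' deposited table. All 5 were tested in TAM, and 4 each in inflammatory monocytes and granulocytes. None was called in TAM or inflammatory monocytes by the authors' Wald test, with 3 lower genes in TAM and 0 in inflammatory monocytes at a p under 0.05 before adjustment. In granulocytes Ctla4 fell, with a log2 fold change of -1.77 (adjusted p = 0.028) in the authors' deposited table, and 9.90% of all genes tested there were called lower. All 4 genes tested in granulocytes were lower at a p under 0.05 before adjustment by the authors' Wald test. Of 9 genes that govern the stability, trafficking or glycosylation of PD-L1 protein, 2 rose and 3 fell in TAM, 1 rose and 1 fell in inflammatory monocytes, and 0 were called in granulocytes by the authors' Wald test (0 at a p under 0.05 before adjustment). Over all genes tested the shares higher and lower were 13.9% and 12.5% in TAM, 4.13% and 1.77% in inflammatory monocytes, and 7.32% and 9.90% in granulocytes. B4galt1, a galactosyltransferase gene, rose in TAM (1.15, adjusted p = 9.1e-15) and in inflammatory monocytes (0.49, adjusted p = 0.014) in the authors' deposited table. In TAM, Spop rose (0.27, adjusted p = 0.011), while Stub1 (-0.40, adjusted p = 0.00059) and Cops5 (-0.40, adjusted p = 0.0066) fell in the authors' deposited table. Cmtm6, whose protein protects PD-L1 from degradation, was not called in any subset. It had 0.38 in TAM (adjusted p = 0.1), 0.12 in inflammatory monocytes (adjusted p = 0.78) and -0.37 in granulocytes (adjusted p = 0.18) in the authors' deposited table.

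Protein-coding neighbours of Cd274 and Pdcd1lg2 on chromosome 19, chosen by position after the values were seen, did not all move with them in TAM. Plgrkt, next to Cd274, had a log2 fold change of 0.16 (adjusted p = 0.54) in the authors' deposited table. Ric1, next to Pdcd1lg2, rose (0.73, adjusted p = 0.0082) and Ermp1 beyond it fell (-0.61, adjusted p = 0.00049) in the authors' deposited table.

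Likeness of pattern was measured as the distance between the Wald statistics of the 3 comparisons, among 10150 genes of mean count 50 or more. Nearest to Cd274 were Tarm1 (distance 0.15), Tnfaip2 (0.28) and Tcn2 (0.55). Nearest to Cd80 were Arrdc3 (0.42), Hilpda (0.51) and Sorl1 (0.53). For Lgals9 they were Inpp5b (0.27), Dtx4 (0.29) and Epsti1 (0.30). Nearest to Pdcd1lg2 was Ly6g (0.32), the gene of the antigen by which granulocytes were sorted, followed by Map3k8 (0.45) and Cdk20 (0.51). In TAM the log2 fold change of Ly6g was -0.37 beside a Wald statistic of 2.41 in the authors' deposited table, so its fold and that of Pdcd1lg2, 1.37, differ in sign there. With 3 comparisons, these distances are a description without a test.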
